A study of Homo sapiens with 6 samples.

Results

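Amino acid transporters were examined in the human lymphoma line OCI-LY1, which derives from a diffuse large B cell lymphoma and is long established, by taking every row of the read count table whose gene symbol begins with SLC1A, SLC3A, SLC6A, SLC7A, SLC36A, SLC38A or SLC43A followed by a digit. This gave 63 of 23250 rows, of which 27 held enough counts to be tested, 16 had some counts but too few to be tested, and 20 had 0 counts in all 6 libraries. Both groups received siRNA against BCL6, the transcriptional repressor that germinal centre B cells need. In 3 libraries ectopic wild-type BCL6 was then expressed (the wild-type rescue), and in the other 3 ectopic BCL6 mutated in RD2, a repression domain of the protein (the mutant rescue). All came from 1 cell line, no library lacked a rescue, and the labels do not say whether a group's 3 libraries are separate cultures. The p-values therefore reflect only how far these libraries spread, and that spread may be technical.

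Cells take up most amino acids through membrane carriers of the solute carrier (SLC) families, and growing lymphocytes raise several of them when they are activated. The heteromeric carriers pair a glycoprotein heavy chain (SLC3) with one of several light chains (SLC7) that does the transport, and they swap one amino acid for another, so that glutamine brought in by sodium coupled carriers (SLC1 and SLC38) can be exchanged for leucine. Leucine, arginine and glutamine inside the cell and its lysosomes are in turn read by the growth kinase complex mTORC1, while shortage of amino acids acts through the kinase GCN2 and the transcription factor ATF4, which raises several transporter genes.

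The libraries held between 26298456 and 27574867 counts, so that 3 counts, taken as the floor for counting error, correspond to 0.109 to 0.115 CPM (counts scaled to a common library size). The scaling used TMM factors. BCL6 itself was 1.31-fold lower in the mutant rescue, at 519.9 ± 8.71 against 679 ± 24.3 CPM (SD, n = 3; edgeR quasi-likelihood test, adjusted p = 7.90e-10), and the gene-level counts hold the cell's own and the introduced transcript together. The groups thus differ in the total BCL6 transcript as well as in the RD2 mutation, and the results below cannot tell these apart. All 7 B lineage markers on a fixed list passed the filter on low counts, with summed levels of 3367 to 3400.2 CPM in the wild-type rescue and 3013 to 3105 CPM in the mutant rescue. Of the T cell, myeloid and fibroblast markers 1 of 15 passed it (CD247), and CD3E, CD2 and COL3A1 were at 0. Of 5 epithelial markers EPCAM alone passed it. KRT19 was at 0, and KRT8, KRT18 and CDH1 had at most 1 count in any library. The summed level of this list, nearly all EPCAM, was 15.6 to 16.8 CPM in the wild-type rescue and 3.47 to 4.06 CPM in the mutant rescue. The part of this change in the results below was not tested. Fewer cells of a type and less RNA per cell cannot be told apart in these bulk libraries.

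The main leucine carrier light chain SLC7A5 fell, while its heavy chain SLC3A2 and the other expressed light chains rose. Among the sodium coupled neutral carriers SLC38A2 rose and SLC38A5 fell, and the highest fold change among the members was that of the little studied SLC6A16, which rose 3.01-fold. Of the 27 tested rows 9 rose, 11 fell and 7 missed the threshold (quasi-likelihood test of edgeR, with p adjusted over all 12406 tested genes and a threshold of 0.05). The share called, 74.1%, was near the 70.1% called among all tested genes, of which 35.4% rose and 34.8% fell. The median log2 fold change, mutant minus wild-type rescue, was -0.06 over the tested transporter rows against 0.01 over all tested genes, and the median absolute log2 fold change was 0.38 against 0.29. Changes of at least 2-fold past the threshold were seen for 2 of the 27 rows, or 7.41%, against 9.51% of all tested genes. When a change had to exceed 1.2-fold (glmTreat in edgeR), 14 of the 27 passed, 5 higher and 9 lower, beside 37.0% of all tested genes. The calls of SLC3A2, SLC7A6, SLC7A1, SLC38A1, SLC43A1 and SLC36A4 were lost against that minimum. The levels of the groups did not overlap for 21 of the 27 rows, all 21 among the 24 transporter genes, beside 72.4% of all tested genes.

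**Figure D1:**
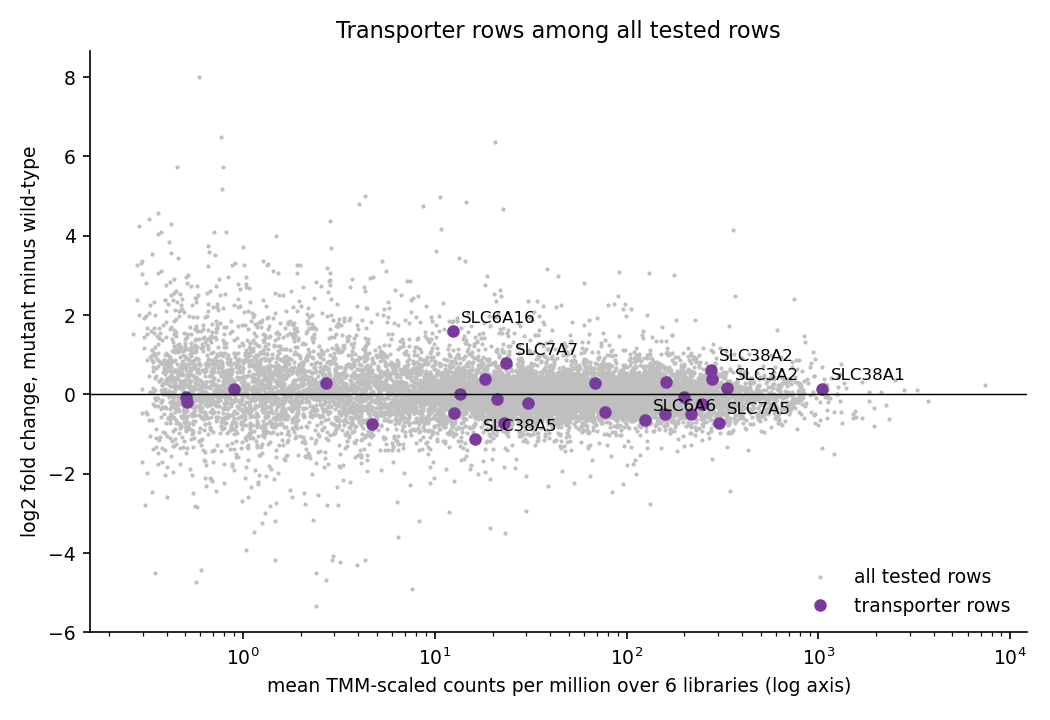
Mean level over the 6 libraries (TMM-scaled CPM, log axis) against the log2 fold change, mutant minus wild-type rescue, for the 12406 tested genes (grey) and the 27 tested transporter rows (purple). The transporter rows lie between -1.13 (SLC38A5) and 1.59 (SLC6A16), within the spread of the other genes.

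Transporter transcripts as a whole took a like share of the libraries in both rescues. Summed over the 63 rows they made up 0.362%, 0.369% and 0.365% of all counts in the wild-type rescue libraries and 0.365%, 0.371% and 0.372% in the mutant rescue libraries, so the groups overlapped. The share of SLC38A1 in these transporter counts was 27.0% ± 0.517 in the wild-type rescue and 30.0% ± 1.04 in the mutant rescue (SD, n = 3). Levels of different genes are compared here per kilobase of each gene's longest annotated transcript. On that scale the order in the wild-type rescue was SLC3A2 (142 ± 1.02 CPM per kilobase), SLC38A1 (123 ± 4.08), SLC43A3 (97.1 ± 0.176), SLC7A5 (82.8 ± 1.63), SLC1A5 (70.8 ± 0.782) and SLC38A2 (44.4 ± 1.77), as mean ± SD of 3 libraries, and the gaps between neighbours exceeded these SDs. The SDs cover the spread of libraries only. They do not cover the choice of transcript length, on which the order between genes also rests. In the mutant rescue SLC3A2 (158 ± 5.46) and SLC38A1 (136 ± 7.13) again led. They were followed by SLC43A3 (68.8 ± 0.341), SLC38A2 (68.2 ± 3.88) and SLC1A5 (68.0 ± 2.65), which did not differ beyond their spread, and by SLC7A5 (50.6 ± 1.39).

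**Figure D2:**
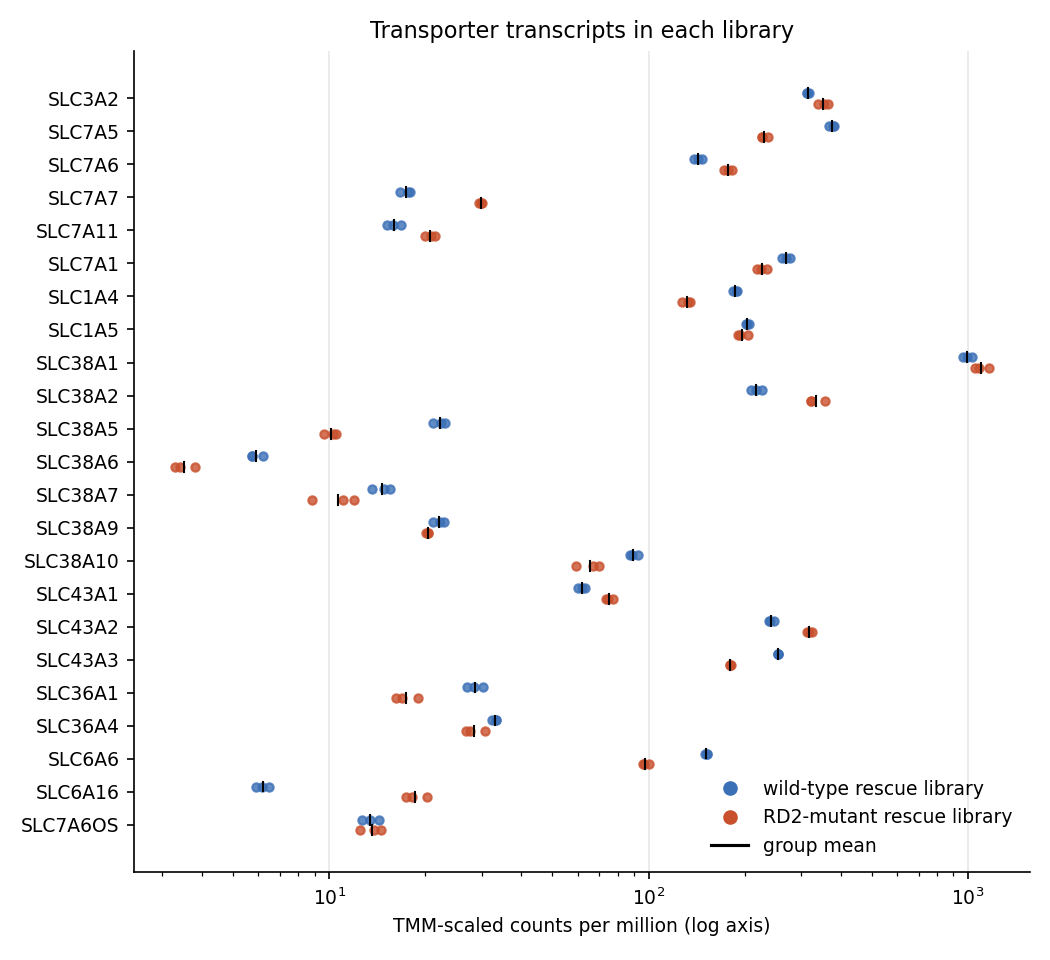
TMM-scaled CPM (log axis) of the 23 members at 5 CPM or more in either rescue, with 1 point per library (wild-type rescue blue, RD2-mutant rescue red) and a black bar at each group mean of 3 libraries. SLC38A1 is at about 996 and 1100.2 CPM, and the points of the groups separate for every gene shown but SLC1A5 and SLC7A6OS.

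The heavy chain SLC3A2 (CD98), which carries several light chains to the cell surface, had 313, 317 and 314 CPM in the wild-type rescue libraries and 354, 339 and 363 CPM in the mutant rescue libraries. All mutant rescue libraries were above all wild-type rescue libraries, by 1.12-fold (log2 fold change 0.16, SE 0.032; edgeR, adjusted p = 1.30e-04). The other heavy chain, SLC3A1, which serves a cystine and cationic amino acid carrier of kidney and gut, had 0 counts with wild-type BCL6 and 3, 4 and 0 counts with the mutant, too few to test.

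SLC7A5 (LAT1), the light chain that brings in leucine and other large neutral amino acids in exchange for glutamine, had 367, 379 and 381 CPM in the wild-type rescue libraries and 226, 227 and 237 CPM in the mutant rescue libraries. The lowest wild-type rescue library was far above the highest mutant rescue library, and the gene fell 1.63-fold (log2 fold change -0.71, SE 0.032; edgeR, adjusted p = 4.27e-14). Its pseudogenes SLC7A5P1 and SLC7A5P2, which could share reads with it, had 7 to 20 counts per library and did not pass the test.

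Light chains with other substrates rose. SLC7A6, which exchanges cationic for neutral amino acids, had 147, 139 and 143 CPM in the wild-type rescue libraries and 182, 172 and 177 CPM in the mutant rescue libraries, a rise of 1.24-fold (log2 fold change 0.31, SE 0.035; edgeR, adjusted p = 8.66e-08). It shares exon sequence with SLC7A6OS, a protein-coding gene on the opposite strand that the symbol rule also takes and that is no transporter. SLC7A6OS had 13.4, 14.3 and 12.7 CPM in the wild-type rescue libraries and 13.8, 12.5 and 14.5 CPM in the mutant rescue libraries (log2 fold change 0.02) and its groups overlapped. SLC7A7, the other exchanger of cationic for neutral amino acids, had 16.7, 17.6 and 17.9 CPM in the wild-type rescue libraries and 30.1, 29.5 and 29.9 CPM in the mutant rescue libraries, and all mutant rescue libraries lay above, by 1.72-fold (log2 fold change 0.78, SE 0.056; edgeR, adjusted p = 8.13e-11). SLC7A11, the cystine and glutamate exchanger that supplies cysteine for glutathione, had 15.2, 15.8 and 16.8 CPM in the wild-type rescue libraries and 19.9, 20.8 and 21.4 CPM in the mutant rescue libraries, again without overlap, and rose 1.30-fold (log2 fold change 0.38, SE 0.064; edgeR, adjusted p = 2.18e-05). The light chains SLC7A9, SLC7A10 and SLC7A13 had 0 counts in every library, and SLC7A8 had 1 to 11.

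Per kilobase, the makeup of the light chain transcripts therefore shifted between the rescues. The share of SLC7A5 in the summed level of the 4 tested light chains was 73.4% ± 0.602 in the wild-type rescue and 55.8% ± 0.812 in the mutant rescue (SD, n = 3). That of SLC7A6 was 20.1% ± 0.743 in the wild-type rescue and 30.9% ± 0.778 in the mutant rescue (SD, n = 3), and that of SLC7A7 was 5.11% ± 0.118 in the wild-type rescue and 10.9% ± 0.154 in the mutant rescue (SD, n = 3). The level of SLC7A5 per unit of SLC3A2 was 0.585 ± 0.00951 in the wild-type rescue and 0.320 ± 0.00730 in the mutant rescue (SD, n = 3), both per kilobase. None of these 4 ratios overlapped between the groups; no test was run on them, and with 3 libraries a group the smallest p an exact permutation test can give is 0.1. Both subunits were measured as transcripts, and neither protein nor transport was measured.

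**Figure D3:**
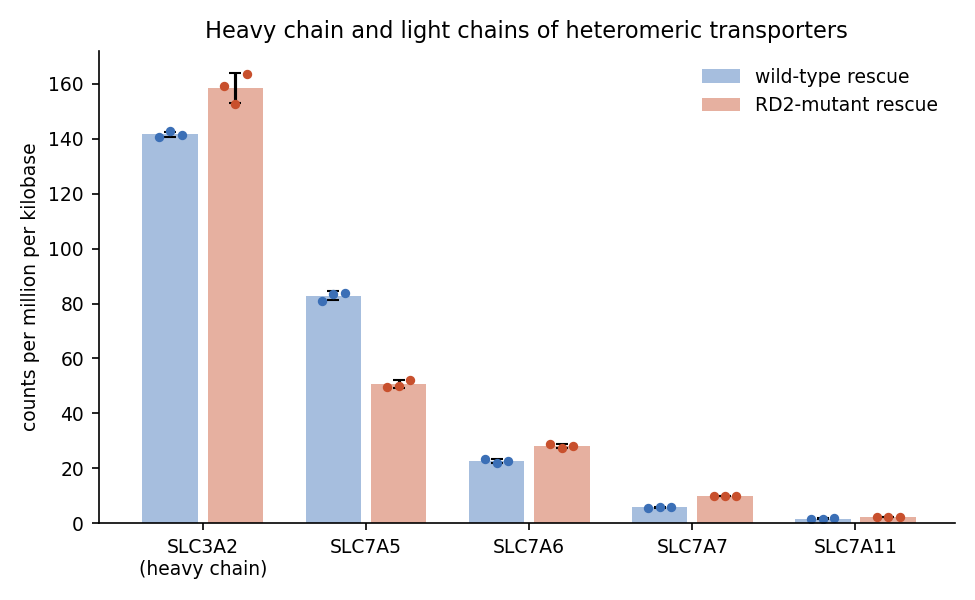
CPM per kilobase of longest transcript for the heavy chain SLC3A2 and the 4 tested light chains in the wild-type (blue) and RD2-mutant (red) rescue; bars are means of 3 libraries, error bars the SD and points single libraries. SLC7A5 falls from 82.8 to 50.6 CPM per kilobase, while the other 4 genes rise.

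The 250 bases before and 50 after the transcript starts of the named members were searched on both strands for 3 short motifs, because ATF4, MYC and BCL6 are known to bind sequences of these kinds. RefSeq (GRCh38.p14) held windows for 20 of the 23 members, 36 windows in all since many genes have several starts. SLC43A3, SLC6A6 and SLC7A11 were not matched. The amino acid response core TGATGNAA was found in 5 of the 36 windows and in 3.62% of all 35116 windows. It stood in those of SLC3A2, SLC38A1, SLC1A4, SLC1A5 and SLC7A1, of which SLC3A2 and SLC38A1 rose, SLC1A4 and SLC7A1 fell and SLC1A5 did not pass the test. The E-box CACGTG was in 8 windows, against 7.26% of all windows, those of SLC7A5, SLC38A5, SLC38A7 and SLC36A1, which fell, of SLC7A7, SLC43A1 and SLC6A16, which rose, and of SLC1A5. The BCL6 and STAT type site TTCNNNGAA was in 3 windows, against 7.66% of all, of which SLC3A2 holds 2 and SLC38A1 holds 1. Counted by gene, the amino acid response core was in 5 of the 20 members, against 4.46% of all 27305 genes with windows. The E-box was in 8, against 8.77%, and the BCL6 and STAT type site in 2, against 9.38%. These backgrounds include genes too low to be tested here, while the members were taken for their level, and no enrichment was tested. The motifs do not contain one another. Windows are shown for the heavy chain, for SLC7A5, and for 1 sodium coupled carrier that rose and 1 that fell. Each window shown holds a match, which many of the 36 do not. SLC38A1 and SLC1A4 each have another window without a match, and SLC38A2, which rose more than SLC38A1, had none in its window. They lie at chr11:62881449-62881748 on the plus strand (SLC3A2, the most downstream of its 3 starts), chr16:87869458-87869757 on the minus strand (SLC7A5), chr12:46266467-46266766 on the minus strand (SLC38A1) and chr2:64989149-64989448 on the plus strand (SLC1A4), all in GRCh38.p14. Each is written 5′ to 3′ along its gene with the motif matches in capitals. The matches are descriptions of these letters, not of binding.
SLC3A2: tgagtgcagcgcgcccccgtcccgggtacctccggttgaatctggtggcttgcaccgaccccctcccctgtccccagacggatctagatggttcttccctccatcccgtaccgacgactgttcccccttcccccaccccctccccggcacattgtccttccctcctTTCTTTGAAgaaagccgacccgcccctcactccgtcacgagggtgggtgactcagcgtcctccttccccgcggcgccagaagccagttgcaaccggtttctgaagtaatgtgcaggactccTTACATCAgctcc
SLC7A5: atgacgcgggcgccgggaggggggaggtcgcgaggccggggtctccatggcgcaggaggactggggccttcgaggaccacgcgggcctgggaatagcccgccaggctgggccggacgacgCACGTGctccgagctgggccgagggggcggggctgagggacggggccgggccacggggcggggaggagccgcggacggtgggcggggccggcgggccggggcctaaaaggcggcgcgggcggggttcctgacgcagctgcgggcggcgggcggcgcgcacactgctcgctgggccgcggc
SLC38A1: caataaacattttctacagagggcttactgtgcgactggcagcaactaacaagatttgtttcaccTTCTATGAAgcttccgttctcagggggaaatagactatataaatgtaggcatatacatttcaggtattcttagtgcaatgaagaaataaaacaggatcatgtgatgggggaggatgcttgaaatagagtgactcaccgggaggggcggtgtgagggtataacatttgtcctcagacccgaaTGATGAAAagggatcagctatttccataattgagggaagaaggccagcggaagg
SLC1A4: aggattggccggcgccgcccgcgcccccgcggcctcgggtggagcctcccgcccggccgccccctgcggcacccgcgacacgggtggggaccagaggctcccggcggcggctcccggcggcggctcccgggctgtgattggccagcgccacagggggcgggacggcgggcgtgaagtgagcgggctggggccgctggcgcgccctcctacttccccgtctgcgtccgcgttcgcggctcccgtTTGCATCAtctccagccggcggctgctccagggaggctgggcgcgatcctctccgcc

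Of the cationic amino acid transporters, which carry arginine and lysine, SLC7A1 alone was expressed. It had 261, 278 and 269 CPM in the wild-type rescue libraries and 219, 235 and 224 CPM in the mutant rescue libraries, with no overlap, and fell 1.19-fold (log2 fold change -0.25, SE 0.035; edgeR, adjusted p = 1.94e-06). SLC7A2, SLC7A4 and SLC7A14 had 0 counts in every library, and SLC7A3 had 1 count in 1 library.

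The SLC1 family holds the glutamate transporters of nerve and glia and a pair of exchangers of small neutral amino acids, and only that pair was expressed here. SLC1A4 (ASCT1), which carries serine, alanine and cysteine, had 183, 188 and 189.8 CPM in the wild-type rescue libraries and 127, 134 and 133 CPM in the mutant rescue libraries. The groups were clearly apart, and it fell 1.42-fold (log2 fold change -0.51, SE 0.034; edgeR, adjusted p = 2.70e-11). SLC1A5 (ASCT2), the glutamine carrier, had 204, 206 and 202 CPM in the wild-type rescue libraries and 191, 193 and 205 CPM in the mutant rescue libraries. The third mutant rescue library lay among the wild-type rescue libraries, and the gene did not pass the test (log2 fold change -0.06, SE 0.034; edgeR, adjusted p = 0.141). Without that library it had a log2 fold change of -0.09 (edgeR, adjusted p = 0.0412). SLC1A1, SLC1A2 and SLC1A3 had 0 to 7 counts per library and SLC1A6 and SLC1A7 had 0.

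Sodium coupled neutral amino acid transporters of the SLC38 family, which bring in glutamine, alanine and serine, moved in both directions, and of the 7 tested 2 rose, 4 fell and 1 missed the threshold. SLC38A1 (SNAT1), one of the 2 most abundant transporter transcripts per kilobase, had 966, 1031 and 990.1 CPM in the wild-type rescue libraries and 1052, 1164 and 1085 CPM in the mutant rescue libraries. The groups did not overlap, but the rise was of 1.10-fold only (log2 fold change 0.14, SE 0.036; edgeR, adjusted p = 0.00151). SLC38A2 (SNAT2), a carrier known to be raised when amino acids are scarce, had 209, 226 and 217 CPM in the wild-type rescue libraries and 323, 355 and 322 CPM in the mutant rescue libraries. All mutant rescue libraries were well above the wild-type rescue, by 1.54-fold (log2 fold change 0.62, SE 0.04; edgeR, adjusted p = 6.44e-11). Its level per unit of SLC38A1, both per kilobase, was 0.360 ± 0.00282 in the wild-type rescue and 0.500 ± 0.00873 in the mutant rescue (SD, n = 3).

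SLC38A5 (SNAT5), which moves glutamine, histidine and serine, was the member with the largest fall. It had 23.1, 22.4 and 21.2 CPM in the wild-type rescue libraries and 10.5, 10.2 and 9.66 CPM in the mutant rescue libraries. No mutant rescue library came near the wild-type rescue libraries, and the gene fell 2.19-fold (log2 fold change -1.13, SE 0.069; edgeR, adjusted p = 6.03e-12). SLC38A6, at a low level, had 5.73, 6.20 and 5.72 CPM in the wild-type rescue libraries and 3.28, 3.80 and 3.42 CPM in the mutant rescue libraries and fell 1.68-fold (log2 fold change -0.75, SE 0.11; edgeR, adjusted p = 5.31e-06); it shares exon sequence with TRMT5 on the opposite strand, and the strand setting of the counts is not given in the sources used here.

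Of the carriers of this family on lysosomes, SLC38A7 was lower and SLC38A9 did not pass the test. SLC38A7, which lets glutamine and asparagine out of lysosomes, had 15.5, 13.6 and 14.9 CPM in the wild-type rescue libraries and 11.0, 8.87 and 11.9 CPM in the mutant rescue libraries and fell 1.38-fold (log2 fold change -0.47, SE 0.093; edgeR, adjusted p = 1.85e-04). SLC38A9, the lysosomal arginine sensor that signals to mTORC1, had 22.2, 22.9 and 21.1 CPM in the wild-type rescue libraries and 20.5, 20.5 and 20.1 CPM in the mutant rescue libraries. Its groups did not overlap, but the difference of -0.12 on the log2 scale did not pass the test (SE 0.058; edgeR, adjusted p = 0.0779). SLC38A10, whose role is less clear, had 92.4, 87.2 and 89.0 CPM in the wild-type rescue libraries and 66.9, 59.0 and 70.1 CPM in the mutant rescue libraries and fell 1.37-fold (log2 fold change -0.45, SE 0.051; edgeR, adjusted p = 3.96e-07). SLC38A3, SLC38A4 and SLC38A11 had 0 counts in every library, and SLC38A8 had 2 counts in 1 library.

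**Figure D4:**
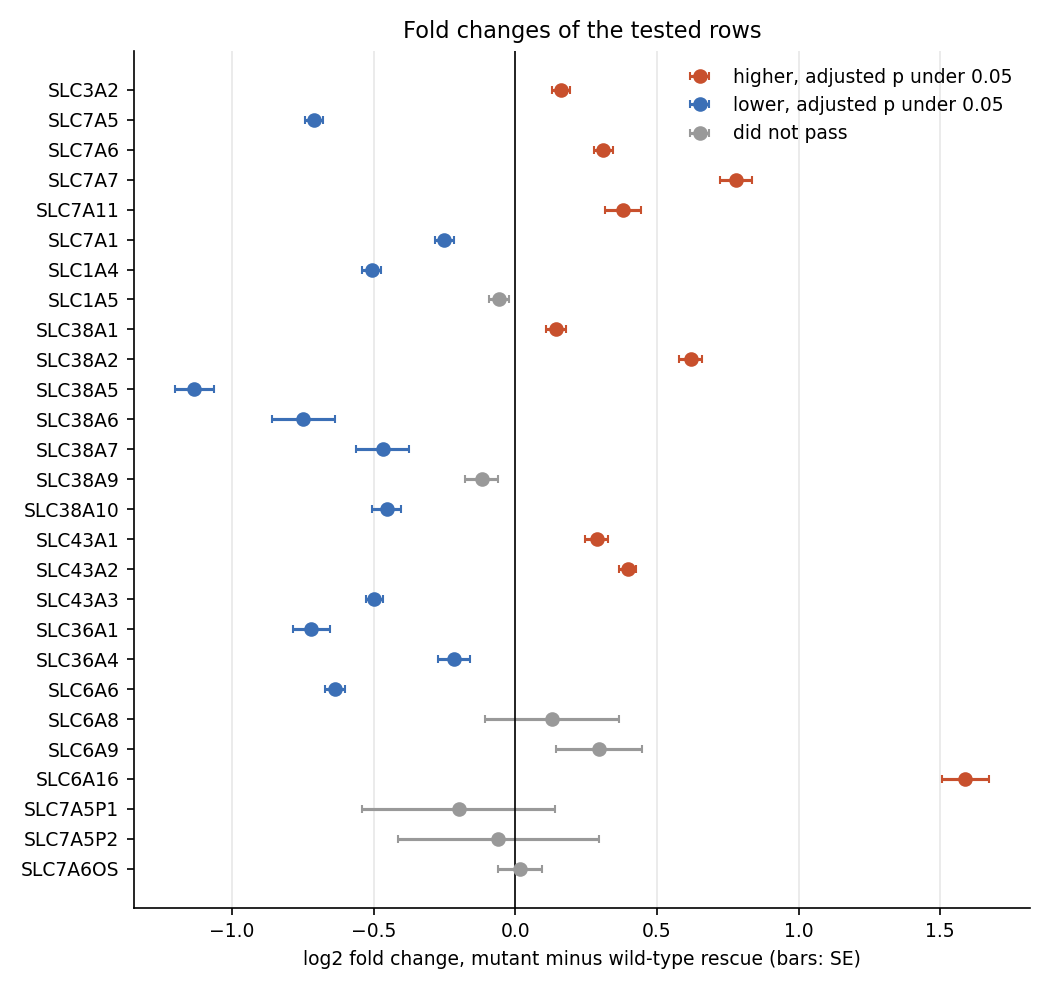
Log2 fold change, mutant minus wild-type rescue, with its standard error for the 27 tested rows in order of role (red higher, blue lower, grey did not pass at an adjusted p of 0.05, edgeR quasi-likelihood test). Within the light chains SLC7A5 stands at -0.71 and the other 3 above 0, and within SLC38 the values run from -1.13 (SLC38A5) to 0.62 (SLC38A2).

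The SLC43 family carries large neutral amino acids without sodium. SLC43A1 (LAT3) had 61.8, 63.2 and 60.0 CPM in the wild-type rescue libraries and 74.6, 73.7 and 77.6 CPM in the mutant rescue libraries and rose 1.22-fold (log2 fold change 0.29, SE 0.04; edgeR, adjusted p = 2.06e-06). SLC43A2 (LAT4), which like SLC43A1 lets leucine and phenylalanine pass, had 247, 239.7 and 239 CPM in the wild-type rescue libraries and 314, 317 and 324 CPM in the mutant rescue libraries and rose 1.32-fold (log2 fold change 0.40, SE 0.031; edgeR, adjusted p = 3.43e-10). Both went the other way from the leucine exchanger light chain SLC7A5. The third relative, SLC43A3, is known as a purine nucleobase carrier rather than an amino acid carrier. It had 254, 255 and 255 CPM in the wild-type rescue libraries and 180.0, 181 and 179 CPM in the mutant rescue libraries, the tightest replicates among the abundant members, and fell 1.41-fold (log2 fold change -0.50, SE 0.03; edgeR, adjusted p = 6.47e-12).

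Proton coupled transporters of the SLC36 family, which move small amino acids out of lysosomes or into the cell, fell in both tested members. SLC36A1 (PAT1) had 30.4, 26.9 and 28.3 CPM in the wild-type rescue libraries and 19.0, 16.9 and 16.2 CPM in the mutant rescue libraries and fell 1.65-fold (log2 fold change -0.72, SE 0.066; edgeR, adjusted p = 4.48e-09). SLC36A4 had 33.2, 32.4 and 33.2 CPM in the wild-type rescue libraries and 27.6, 30.7 and 26.8 CPM in the mutant rescue libraries and fell 1.16-fold (log2 fold change -0.22, SE 0.055; edgeR, adjusted p = 0.0016). The groups did not overlap for either gene. SLC36A2 and SLC36A3 had 0 to 6 counts per library.

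Most of the SLC6 family, which holds the neurotransmitter transporters, had few or no counts: of 19 genes 4 were tested. SLC6A6, the taurine transporter, was the most abundant, with 150.4, 153 and 152 CPM in the wild-type rescue libraries and 96.5, 101 and 95.9 CPM in the mutant rescue libraries, and it fell 1.55-fold (log2 fold change -0.64, SE 0.034; edgeR, adjusted p = 7.32e-13). It shares exon sequence with GRIP2 on the opposite strand. SLC6A16, whose substrate is not well established, had 6.49, 6.16 and 5.91 CPM in the wild-type rescue libraries and 20.3, 17.4 and 18.1 CPM in the mutant rescue libraries. Every mutant rescue library exceeded every wild-type rescue library, by 3.01-fold on average (log2 fold change 1.59, SE 0.084; edgeR, adjusted p = 5.32e-13). The creatine transporter SLC6A8 had 19 to 28 counts per library and the glycine transporter SLC6A9 59 to 89. Their log2 fold changes of 0.13 (SE 0.24; edgeR, adjusted p = 0.636) and 0.30 (SE 0.15; edgeR, adjusted p = 0.0870) did not pass the test, and without the third wild-type rescue library that of SLC6A9 was 0.43 (edgeR, adjusted p = 0.0382). The other 15 genes of the family had at most 4 counts in any library.

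The other genes of amino acid handling were taken from 5 lists and read beside the same 70.1% called among all tested genes. Of 16 tested amino acid carriers outside the 7 families, 2 rose, 8 fell and 6 missed the threshold (median log2 fold change -0.19). The serine carrier of mitochondria SFXN1 had 209 ± 2.82 CPM with wild-type and 139.7 ± 5.36 CPM with mutant BCL6, a log2 fold change of -0.58. SLC25A12, a mitochondrial aspartate and glutamate carrier, had 84.7 ± 3.66 CPM with wild-type and 59.1 ± 2.38 CPM with mutant BCL6 (-0.52). Low in both groups were SLC16A10, a carrier of aromatic amino acids, with 7.86 ± 0.355 CPM with wild-type and 3.29 ± 0.253 CPM with mutant BCL6 (-1.26), and the lysosomal SLC15A3, with 8.36 ± 0.601 CPM with wild-type and 3.59 ± 0.121 CPM with mutant BCL6 (-1.22). All 4 fell. Here and below, a value in parentheses after CPM levels (mean ± SD, n = 3) is a log2 fold change, mutant minus wild-type rescue, and its adjusted p is at most 0.00171 (edgeR quasi-likelihood test).

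Genes that read amino acids for mTORC1 were mixed, with 10 of 30 tested higher, 13 lower and 7 not past the test (median 0.07). The leucine sensor SESN2 rose, with 27.5 ± 1.33 CPM with wild-type and 53.8 ± 1.45 CPM with mutant BCL6 (0.97), as did FLCN, which acts on the RAG GTPases, with 39.0 ± 1.16 CPM with wild-type and 58.5 ± 3.66 CPM with mutant BCL6 (0.58). LARS, the leucyl tRNA synthetase, had 319 ± 8.63 CPM with wild-type and 214 ± 6.58 CPM with mutant BCL6 (-0.58), and LAMTOR1, which anchors the Ragulator complex to the lysosome, had 139.8 ± 2.81 CPM with wild-type and 98.7 ± 2.74 CPM with mutant BCL6 (-0.50). These fell, and MTOR itself, with 245 ± 0.579 CPM with wild-type and 226 ± 2.62 CPM with mutant BCL6, was slightly lower (-0.12).

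On the GCN2 and ATF4 list, 17 of 27 tested genes were higher, 9 were lower and 1 missed the threshold, with a median log2 fold change of 0.32 against 0.01 over all tested genes. ATF4 itself rose, with 268 ± 6.80 CPM with wild-type and 379.6 ± 7.25 CPM with mutant BCL6 (0.50). DDIT4, an inhibitor of mTORC1 signalling, had 48.2 ± 2.83 CPM with wild-type and 134 ± 6.92 CPM with mutant BCL6 (1.48), VLDLR, a lipoprotein receptor, 7.77 ± 1.10 CPM with wild-type and 30.5 ± 1.81 CPM with mutant BCL6 (1.97), and both rose, as did SESN2, which is on this list too. ALDH18A1, an enzyme of proline synthesis on the same list, fell, with 112 ± 2.77 CPM with wild-type and 66.1 ± 1.21 CPM with mutant BCL6 (-0.76). Of the transporter genes known as ATF4 targets, SLC3A2, SLC7A11 and SLC38A2 rose and SLC7A5, SLC1A4 and SLC7A1 fell, while SLC1A5 did not pass the test, as given above. This grouping of the transporters was made after their values were seen.

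Enzymes that use or make glutamine and glutamate were mostly lower, with 4 of 17 tested higher, 10 lower and 3 not past the test (median -0.22). The exception in size was GLUL, glutamine synthetase, which rose from 9.18 ± 0.778 to 26.7 ± 1.13 CPM (1.54). ASNS, asparagine synthetase and a known ATF4 target, had 206 ± 1.74 CPM with wild-type and 141 ± 3.55 CPM with mutant BCL6 (-0.55), and CAD, which uses glutamine for pyrimidine synthesis, 326 ± 2.74 CPM with wild-type and 266 ± 1.89 CPM with mutant BCL6 (-0.30). Both fell. Of 16 genes for the breakdown of branched chain amino acids or its control, 2 rose (1 without the third mutant rescue library), 11 fell and 3 missed the threshold (median -0.32). The 2 that rose were IVD and the kinase gene BCKDK, which acts in the control of this breakdown and not as a step of it. The falls included the dehydrogenase gene ACADSB, with 32.6 ± 0.478 CPM with wild-type and 15.7 ± 1.17 CPM with mutant BCL6 (-1.05), and the transaminase gene BCAT2, with 48.2 ± 2.13 CPM with wild-type and 29.8 ± 1.10 CPM with mutant BCL6 (-0.69). MCCC2 (-0.53) and BCKDHB (-0.65), for later steps of leucine and branched chain breakdown, fell too.

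**Figure D5:**
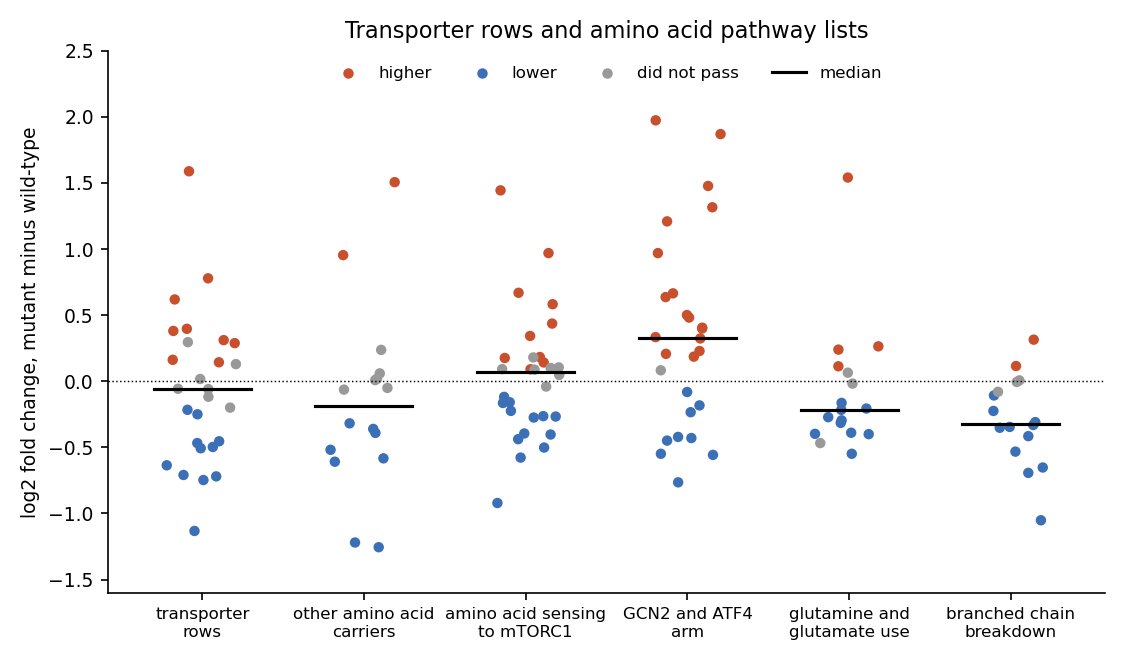
Log2 fold changes, mutant minus wild-type rescue, of the 27 tested transporter rows and of the tested genes of 5 amino acid pathway lists, with 1 point per gene (red higher, blue lower, grey did not pass at an adjusted p of 0.05) and a black bar at each median; points are spread sideways for legibility. The medians are -0.06 for the transporter rows, -0.19, 0.07, 0.32, -0.22 and -0.32 for the lists from left to right.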

How the data were processed

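RNA was sequenced from 6 libraries of OCI-LY1. Extraction used Trizol and library preparation Illumina's TruSeq RNA guide, per the labels' protocols. Build hg19 and the tools STAR, edgeR and CASAVA 1.8.2 are named, per the submitters' processing notes. Which counter, annotation and strand setting were used, and how multi-mapped reads were treated, is not stated in these sources. The values the authors deposited are raw counts of reads by gene symbol, 1 column per library, not pooled.

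Counts were analysed in R 4.3.3 with edgeR 4.0.16: filterByExpr on the whole table (12406 of 23250 genes kept), TMM scaling, robust dispersions, glmQLFit and glmQLFTest on both groups without covariates, and Benjamini-Hochberg adjustment over all tested genes at 0.05. SE is the absolute log2 fold change divided by the square root of F. The fit was first tested on simulated data. Levels per kilobase used each gene's longest GENCODE v29 transcript (GRCh38, lengths only), and exon overlaps came from the same annotation. Replicate libraries differed by more than counting noise (chi-square per degree of freedom 1.60 to 5.47 for genes with 20 counts or more in a pair). In the mutant rescue the pairs with the second library gave 5.47 and 4.36, and the first with the third gave 1.75. All 6 libraries were kept. The named rows are all tested members. Levels per library are given for those at 5 CPM or more in either rescue, or changed at least 2-fold, and from each pathway list the 4 genes with the smallest p, with ATF4 and MTOR. One gene that this rule names is not reported here. Members and lists were chosen with earlier results of these data known. The alternatives tried were DESeq2 1.42.0, scaling by RLE, upper quartile or library size alone, no filter, a minimum of 1 CPM in every library, the replicate block, each library left out in turn, and glmTreat with a 1.2-fold minimum. They were applied to the pathway list counts after the data were seen.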

Additional observations from a re-analysis of the deposited data

How the results depend on the processing

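The 3 other scalings, DESeq2, the stricter filter and the replicate block kept the call of all 20 changed transporter rows, and so did leaving out each library. The counts of rows higher and lower, 9 and 11, ranged from 9 to 10 and from 11 to 12 when 1 library was left out, and were 9 and 12 with the replicate block, which added SLC1A5 (log2 fold change -0.06; edgeR, adjusted p = 0.0425). Over all genes 9285 changed with the block, against 8702. The numbers are not known to pair libraries: deviations of same-numbered libraries from their group means correlated at 0.14, 0.17 and -0.05 over 12406 genes. Those of differently numbered libraries correlated at -0.18 to 0.07, with -0.17 and -0.18 between replicates 1 and 2. Whether replicates 1 and 2 share a structure across the groups was not tested. Scaling shifted the median of all genes by at most 0.03 on the log2 scale. Without a filter SLC3A1, at 0 to 4 counts, was also called (edgeR, adjusted p = 0.0200). Against a 1.2-fold minimum 4585 genes and 5 higher transporter rows passed. On the lists it left 5 higher and 6 lower of the mTORC1 sensing genes, and 12 higher and 5 lower of the GCN2 and ATF4 genes. It also left 1 higher and 4 lower of the glutamine genes, and 0 higher and 6 lower of the branched chain genes. Other amino acid carriers had 1 higher with the stricter filter, and branched chain genes 1 higher with DESeq2. When 1 library was left out the log2 fold change changed sign for 3 rows that did not pass the test: SLC7A5P1 (-0.41 to 0.091), SLC7A5P2 (-0.35 to 0.27) and SLC7A6OS (-0.034 to 0.073). Depth limits the rows under 1 CPM, SLC6A8, SLC7A5P1 and SLC7A5P2, and the 16 untested rows.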
